A study of Mus musculus with 19 samples.

Results

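The genes of the mitochondrial ribosome are described here in mouse liver. They were taken as every gene on the array whose symbol begins with Mrpl or Mrps and a number, with a detection p-value under 0.05 on 5 or more arrays and the brightest probe standing for each gene. All 71 such genes in the array annotation met that detection limit, through 104 of their 109 probes, and they are 71 of the 10831 genes and unnamed probes tested. Liver RNA came from 19 mice, 1 array each, all aged 10 months and all in a study with 8 weeks of treatment. KO placebo livers (n = 6) came from mice without Mat1a, the liver gene for the enzyme that makes S-adenosylmethionine (SAMe), given placebo. KO SAMe livers (n = 5) came from mice without Mat1a given SAMe, and WT placebo livers (n = 8) from mice with the gene given placebo. No WT livers with SAMe were analysed here, so whether SAMe acts differently by genotype was not tested. The sex and strain of the mice, the SAMe dose and the way the gene was removed are not stated in the sources used here.

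Mitochondria keep their own ribosome, which translates the few messages of mitochondrial DNA, all of them for subunits of the respiratory chain and ATP synthase. Its ribosomal RNA is encoded in the mitochondrial genome, but every protein of its large (Mrpl) and small (Mrps) subunit is encoded in the nucleus, made in the cytosol and imported. Many of these proteins have a bacterial counterpart, and others were added to the mitochondrial ribosome during its evolution. SAMe, the product of Mat1a, is the methyl donor of most methylation reactions, among them those of mitochondrial ribosomal RNA.

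Values are log2 intensities after background correction and quantile normalization, and a change is a difference of group means on that scale with the standard error (SE) of the fit. A gene is said to have risen or fallen where limma's two-sided test over all 10831 genes gave a Benjamini-Hochberg adjusted p under 0.05. Levels of different genes are read by different probes and are not compared as amounts of RNA. In whole liver, fewer cells of a type and less RNA per cell cannot be told apart.

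The arrays fell into sets by background, at the largest gap between their median raw signals. In 5 arrays that median was 93.6 to 99.97 (the high-background set, 4 KO placebo arrays and 1 WT placebo array), and in the other 14 it was 75.1 to 85.8. The 4 KO placebo arrays of high background had animal IDs ending in J, the other 2 had letter G, the KO SAMe arrays had I, K or G, and all 8 WT placebo arrays had K. What the letter stands for is not stated in the sources used here. Fits with this set as a block, or with the 14 low-background arrays alone (2 KO placebo, 5 KO SAMe and 7 WT placebo), stand beside the results. Mat1a averaged 9.52 ± 0.31 in KO placebo, 9.64 ± 0.12 in KO SAMe and 12.12 ± 0.14 in WT placebo livers (SD, n = 6, 5 and 8), and the place of its probe relative to the deleted part is not given. Of 10 hepatocyte markers 8 were measured, and their summed linear intensity overlapped between the groups (27480 to 32690 in KO placebo, 28240 to 30190 in KO SAMe and 25290 to 31580 in WT placebo livers), while 3 of the 8 were higher and 1 lower in KO placebo than WT placebo livers. Of the other measured markers, 2 of 5 for stellate cells and fibroblasts, 2 of 6 for sinusoidal endothelium and 1 of 3 for cholangiocytes were higher in KO placebo than WT placebo livers, 1 of 7 for Kupffer cells and macrophages and 1 of 2 for lymphocytes were lower, and none of 5 adipocyte markers was detected often enough to be tested. In KO SAMe against KO placebo livers 2 of 6 markers for sinusoidal endothelium were lower, and of the hepatocyte markers 2 were lower and 1 higher. The part of other cell types, of the background and of the ID letter in the results below was not tested beyond the fits given beside them.

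In KO placebo livers most genes of the mitochondrial ribosome were lower than in WT placebo livers. Of the 71 genes, 41 fell, 3 rose and 27 did not pass the test, so 57.7% fell, against 20.4% of all genes tested, and 4.23% rose, against 19.8% (40.2% of all genes passed in either direction). The median change was -0.33, against 0.01 over all genes. Of the 71 genes, 66 were detected on every array. With the test limited to genes detected on every array, 62.1% of these 66 fell, against 31.3% of all such genes. In that test 3.03% of the 66 rose, against 24.6%. For 22 of the 71, every KO placebo array lay below every WT placebo array, as it did for 8.53% of all genes, and no gene had all its KO placebo arrays above, against 8.12%. Changes ran from -1.22 for Mrpl53 to 0.38 for Mrpl43, and 21 of the 41 genes that fell were lower by 1.5-fold or more.

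The fall was also present with the background set as a block, in which 34 genes fell (47.9%), 2 rose (2.82%) and the median change was -0.31. In that fit 18.1% of all genes fell and 18.2% rose. With low-background arrays alone 17 genes fell (23.9%) and 2 rose (2.82%), against 8.99% and 9.28% of all genes, and the median change was -0.20. Each array was also scaled to the median of all its probes in place of quantile normalization. Then 21 genes fell and 9 rose, where 9.12% of all genes fell and 37% rose. The median change was -0.09, with the median of all genes at 0.18. With the median taken over probes past the detection limit alone, 46 fell and 2 rose, where 42.4% of all genes fell and 16.5% rose. The median change there was -0.47, with all genes at -0.20. Either scaling moves all genes of an array alike, so relative to the median of all genes the change was -0.27 in both by construction. With the ID letter as a term only Mrpl48 fell, by limma at an adjusted p under 0.05, and 9 were lower and 2 higher at an unadjusted p under 0.05. In that fit 0.24% of all genes fell and 0.259% rose at an adjusted p under 0.05, and their share at the unadjusted threshold is not given. Since WT placebo livers held letter K alone, letter and genotype can hardly be told apart.

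**Figure D1:**
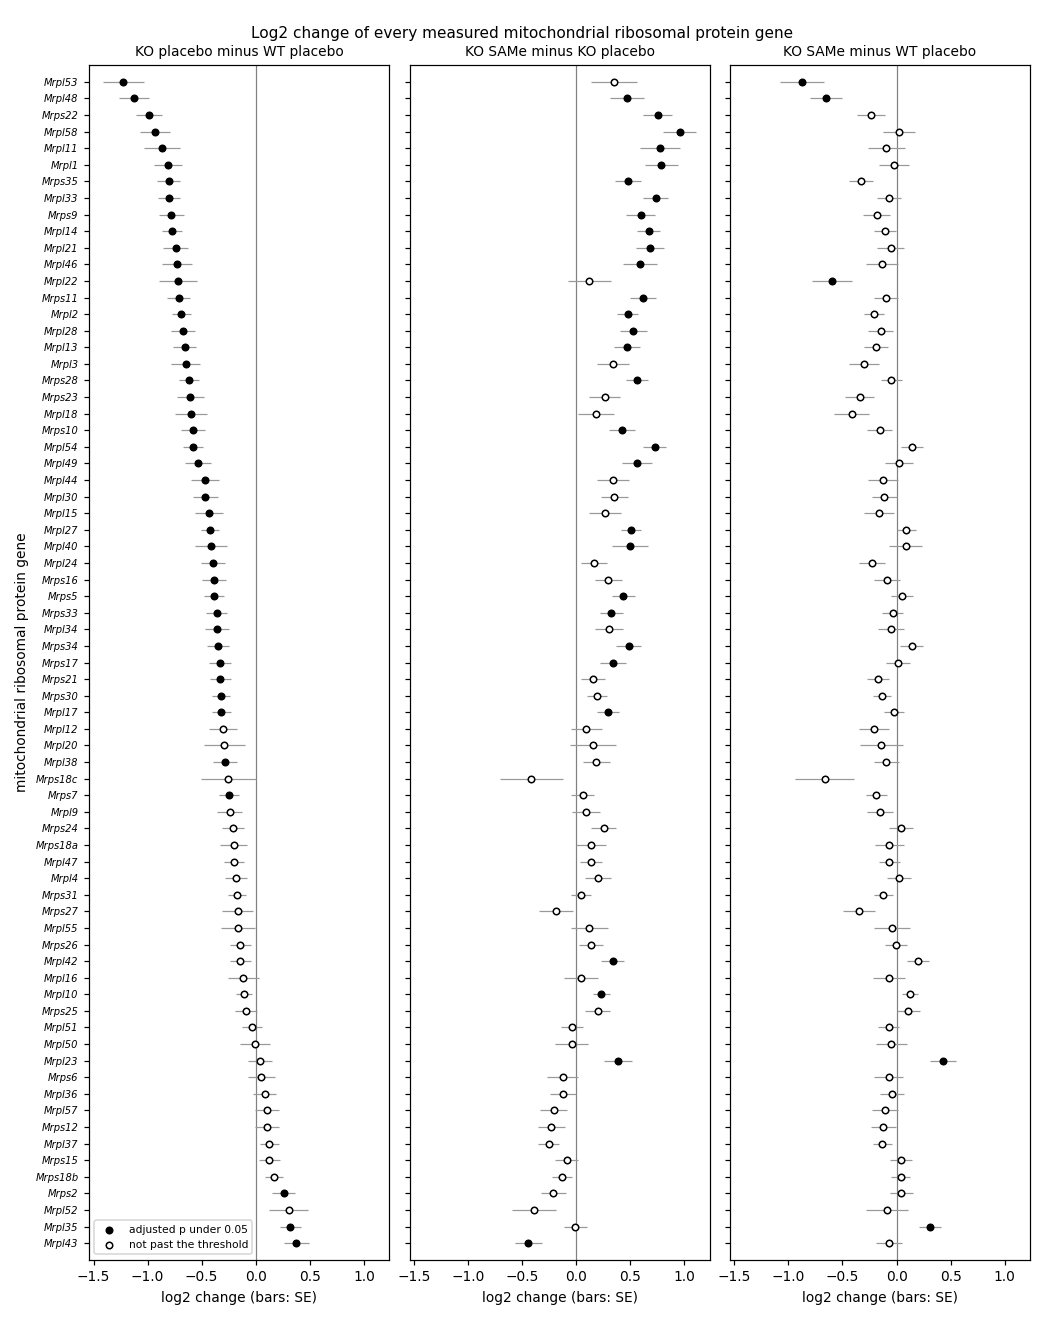
Log2 change (x axis) of each of the 71 genes (rows, ordered by the change between KO placebo and WT placebo livers) in the 3 comparisons. Bars are standard errors, and filled points have an adjusted p under 0.05. In the left panel 41 filled points lie below 0 and 3 above, in the middle panel 29 lie above 0 and 1 below, and in the right panel 2 lie above and 3 below. Scaled to the median of all probes, the middle panel would hold 9 above (12.7%) and 12 below (16.9%), against 1.87% and 29.1% of all genes.

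After SAMe, many of these genes were higher than in KO placebo livers. Their median was below 0 (-0.06) with the median of all probes as the scale, where the median of all genes was -0.21. With quantile normalization 29 of the 71 genes rose, 1 fell and 41 did not pass. Thus 40.8% rose, against 10.8% of all genes, and 1.41% fell, against 7.69%. The median change was 0.26, against 0.00 over all genes. For 18 genes every KO SAMe array lay above every KO placebo array, as it did for 5.15% of all genes. None had every KO SAMe array below, against 3.81%. With the test limited to genes detected on every array, 45.5% of the 66 rose, against 18.2% of all such genes. In that test 1.52% of the 66 fell, against 10.5%. This comparison and the one with WT placebo livers share the 6 KO placebo arrays, so a KO placebo value that is low by chance enters both with opposite sign. The values of each comparison are therefore given side by side.

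Fewer genes rose once the background was taken into account, and no KO SAMe array was in the high-background set. With the background set as a block 16 genes rose, 1 fell and the median change was 0.22, where 4.81% of all genes rose and 4.45% fell. Against the 2 low-background KO placebo arrays alone, 1 gene rose, the large subunit gene Mrpl54 (log2 change 0.68, adjusted p = 0.0497), and the median change was 0.12. In that fit 0.323% of all genes rose, and 22 of the 71 genes were higher and 1 lower at an unadjusted p under 0.05. Scaled to the median of all probes, the median change of the 71 genes turned to -0.06, with 9 higher (12.7%) and 12 lower (16.9%). All genes were then at -0.21, with 1.87% higher and 29.1% lower. With the probes past the detection limit alone the median change of the 71 genes was 0.31, with 33 higher and 1 lower. Of all genes 24.1% were then higher and 8.16% lower. Relative to the median of all genes the median change of the 71 was 0.15 in both, again by construction. With the ID letter as a term none of the 71 genes passed by limma, and 0.00923% of all genes rose at an adjusted p under 0.05. At an unadjusted p under 0.05, 7 of the 71 were higher and 2 lower in that fit. The share of all genes at that unadjusted threshold is not given. Leaving out 1 array at a time gave 20 (without KO placebo 1 or 2) to 31 genes that rose.

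Mrpl58 had the largest rise after SAMe. It codes for a peptidyl-tRNA hydrolase built into the large subunit that frees stalled chains. Its log2 intensity had a lowest, median and highest value of 5.98, 6.42 and 6.75 in KO placebo livers. It was 7.09, 7.21, 7.37, 7.47 and 7.64 in the KO SAMe livers, and 6.98, 7.26 and 7.68 (lowest, median, highest) in WT placebo livers. Every KO placebo array lay below every array of the other groups, and the KO SAMe and WT placebo arrays overlapped. The gene was 1.91-fold lower in KO placebo than WT placebo livers (log2 change -0.93, SE 0.14, adjusted p = 1.3e-05) and 1.94-fold higher in KO SAMe than KO placebo livers (0.96, SE 0.15, adjusted p = 0.00044). With low-background arrays alone its changes were -0.63 (adjusted p = 0.021) and 0.64 (adjusted p = 0.11).

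Mrpl1, the protein of the mobile stalk beside the site where tRNA leaves, followed with a lowest, median and highest value of 7.21, 7.52 and 7.85 in KO placebo livers. The KO SAMe livers had 8.12, 8.22, 8.29, 8.35 and 8.43, and WT placebo livers had 7.66, 8.31 and 8.63. All KO SAMe arrays lay above all KO placebo arrays, while 1 WT placebo array, at 7.66, lay inside the KO placebo range. The log2 change was -0.81 (SE 0.13, adjusted p = 4.5e-05) between KO placebo and WT placebo livers and 0.79 (SE 0.15, adjusted p = 0.0013) between KO SAMe and KO placebo livers. Mrpl11, a large subunit protein of the region that binds elongation factors, had 6.18, 6.76 and 7.03 (lowest, median, highest) in KO placebo, 7.04, 7.30, 7.53, 7.58 and 7.74 in KO SAMe, and 6.90, 7.54 and 7.93 in WT placebo livers. Its change was -0.87 (SE 0.16) in KO placebo against WT placebo livers and 0.77 (SE 0.18) in KO SAMe against KO placebo livers, with adjusted p = 2e-04 for the fall and 0.0059 for the rise. The rise of Mrpl11 with the background set as a block was 0.69 (adjusted p = 0.063), and its fall among the low-background arrays was -0.58 (adjusted p = 0.079).

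Mrps22 led the small subunit. It codes for a protein without a bacterial counterpart, and in human its mutations cause mitochondrial disease. Its lowest, median and highest values were 7.24, 7.54 and 7.92 in KO placebo livers. The KO SAMe livers had 8.13, 8.19, 8.27, 8.45 and 8.60, and WT placebo livers had 8.16, 8.59 and 8.79. The KO placebo arrays lay below all others. Mrps22 was 1.98-fold lower in KO placebo than WT placebo livers (log2 change -0.99, SE 0.12, adjusted p = 1.7e-06) and 1.69-fold higher in KO SAMe than KO placebo livers (0.75, SE 0.14, adjusted p = 0.00098). Among the low-background arrays the changes were -0.68 (adjusted p = 0.0081) and 0.44 (adjusted p = 0.21).

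Mrpl33, one of the smallest large subunit proteins, had 8.87, 9.19 and 9.49 (lowest, median, highest) in KO placebo, 9.84, 9.88, 9.89, 9.90 and 9.99 in KO SAMe, and 9.61, 9.92 and 10.31 in WT placebo livers. Mrpl14, a conserved protein of the face where the subunits join, had 9.40, 9.75 and 9.95 in KO placebo, 10.29, 10.30, 10.37, 10.40 and 10.54 in KO SAMe, and 10.32, 10.44 and 10.74 in WT placebo livers. For both genes the KO placebo arrays did not overlap with either other group. The change in KO placebo against WT placebo livers was -0.80 for Mrpl33 (adjusted p = 3.6e-06) and -0.78 for Mrpl14 (adjusted p = 1.3e-06). The change in KO SAMe against KO placebo livers was 0.74 for Mrpl33 (adjusted p = 0.00044) and 0.67 for Mrpl14 (adjusted p = 0.00043). Neither rise passed among the low-background arrays, where it was 0.56 for Mrpl33 (adjusted p = 0.081) and 0.53 for Mrpl14 (adjusted p = 0.065).

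Mrpl21 and Mrpl54 complete the 8 largest rises after SAMe. Mrpl21, a conserved large subunit protein, was at 7.71, 8.23 and 8.29 (lowest, median, highest) in KO placebo, 8.57, 8.73, 8.84, 8.86 and 9.02 in KO SAMe, and 8.44, 8.86 and 9.12 in WT placebo livers. Mrpl54, which has no bacterial counterpart, was at 7.82, 8.08 and 8.31 in KO placebo, 8.61, 8.82, 8.83, 8.84 and 8.98 in KO SAMe, and 8.45, 8.69 and 8.90 in WT placebo livers. Again every KO placebo array was below every other array. Their changes between KO SAMe and KO placebo livers were 0.68 for Mrpl21 (adjusted p = 0.0013) and 0.72 for Mrpl54 (adjusted p = 0.00031).

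**Figure D2:**
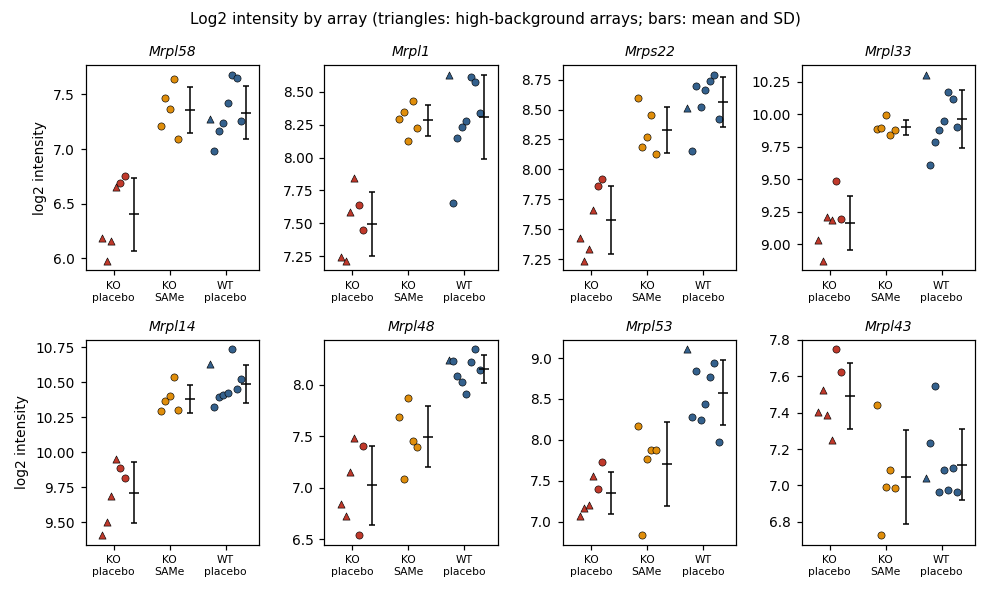
Log2 intensity (y axis) of 8 genes in every liver (x axis, KO placebo, KO SAMe and WT placebo). Points are arrays, triangles mark the high-background set and bars give the mean and SD. Mrpl58 and Mrps22 lie lower in all 6 KO placebo livers than in any other liver, Mrpl48 stays lower in all 5 KO SAMe livers than in any WT placebo liver, and Mrpl43 runs the other way.

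Promoter windows are shown for the genes with the largest rises of this kind, Mrpl58, Mrpl1, Mrpl11 and Mrps22, and for Mrpl43, which changed in the opposite direction. The windows come from RefSeq on assembly GRCm38.p6 and run from 250 bases before to 50 bases after the transcription start, 5′ to 3′ on the strand of the gene. Mrpl58 lies at chr11:115403502-115403801 on the plus strand, Mrpl1 at chr5:96209865-96210164 on the plus strand and Mrpl11 at chr19:4962056-4962355 on the plus strand. Mrps22 lies at chr9:98601630-98601929 and Mrpl43 at chr19:45006393-45006692, both on the minus strand. Capitals mark matches, on either strand, to the motif letters of GABPA (CCGGAAG), SP1 (GGGCGG), YY1 (AAGATGG) and NRF1 (CATGCGC), factors known to bind promoters of nuclear genes for mitochondrial proteins.
Mrpl58: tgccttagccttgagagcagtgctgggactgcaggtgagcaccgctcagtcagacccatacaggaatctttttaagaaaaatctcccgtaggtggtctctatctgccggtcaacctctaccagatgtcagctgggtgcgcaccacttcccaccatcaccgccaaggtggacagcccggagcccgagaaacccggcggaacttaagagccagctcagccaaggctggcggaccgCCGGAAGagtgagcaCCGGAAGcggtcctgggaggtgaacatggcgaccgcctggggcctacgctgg
Mrpl1: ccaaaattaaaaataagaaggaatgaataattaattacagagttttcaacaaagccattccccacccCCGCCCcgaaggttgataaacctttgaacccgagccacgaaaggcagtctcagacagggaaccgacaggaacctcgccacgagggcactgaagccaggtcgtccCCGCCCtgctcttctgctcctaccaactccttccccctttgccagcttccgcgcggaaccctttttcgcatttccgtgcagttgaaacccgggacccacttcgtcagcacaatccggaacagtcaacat
Mrpl11: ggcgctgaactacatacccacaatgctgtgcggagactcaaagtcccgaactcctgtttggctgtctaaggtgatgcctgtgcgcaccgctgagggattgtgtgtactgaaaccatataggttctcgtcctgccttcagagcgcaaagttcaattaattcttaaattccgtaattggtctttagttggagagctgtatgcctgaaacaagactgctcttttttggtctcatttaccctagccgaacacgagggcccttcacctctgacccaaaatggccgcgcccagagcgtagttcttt
Mrps22: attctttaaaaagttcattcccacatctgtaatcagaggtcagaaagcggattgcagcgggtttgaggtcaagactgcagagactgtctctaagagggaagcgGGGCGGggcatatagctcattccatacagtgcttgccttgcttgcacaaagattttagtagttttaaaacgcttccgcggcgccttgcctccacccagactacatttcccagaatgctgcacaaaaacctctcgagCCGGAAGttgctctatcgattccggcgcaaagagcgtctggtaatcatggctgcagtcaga
Mrpl43: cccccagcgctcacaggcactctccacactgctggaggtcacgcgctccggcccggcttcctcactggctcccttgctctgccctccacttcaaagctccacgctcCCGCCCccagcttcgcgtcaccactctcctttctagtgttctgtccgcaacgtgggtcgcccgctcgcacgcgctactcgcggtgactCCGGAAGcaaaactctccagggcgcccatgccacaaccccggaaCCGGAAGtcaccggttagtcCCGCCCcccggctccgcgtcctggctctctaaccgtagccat

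Mrpl58 held the GABPA letters at -17 and -2 from the start, Mrps22 held them once at -11 beside SP1 letters at -147, and Mrpl43 held them at -56 and -12 beside SP1 letters at -144 and 9. Mrpl1 held SP1 letters alone, at -183 and -79, and Mrpl11 held none of the motifs in this window. Of the 71 genes 63 had a window in the table. The GABPA letters stood in 41.3% of those 63 genes, against 20.4% of the 6951 tested genes with a window. The YY1 letters stood in 12 of 63, against 8.7%, the NRF1 letters in 9.5%, against 8.0%, and the SP1 letters in 49.2%, against 67.3%. Among genes that fell in KO placebo livers 16 of 34 with a window (47.1%) held the GABPA letters, as did 10 of 29 (34.5%) of the other genes. The YY1 letters were in 3 of 34 (8.8%) of the genes that fell and in 9 of 29 (31.0%) of the others. These shares describe letters in a window and were not tested.

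A few genes stayed low after SAMe. Mrpl48 and Mrpl53, both large subunit proteins without a bacterial counterpart, had the largest falls of all 71 genes in KO placebo livers. Mrpl48 was at 6.54, 6.998 and 7.48 (lowest, median, highest) in KO placebo, 7.08, 7.40, 7.45, 7.68 and 7.87 in KO SAMe, and 7.91, 8.18 and 8.35 in WT placebo livers. All 5 KO SAMe arrays thus lay below all 8 WT placebo arrays, the only one of the 71 genes of which this held, against 2.62% of all genes. No gene of the 71 had all KO SAMe arrays above all WT placebo arrays, against 3.54%. Mrpl48 was 2.18-fold lower in KO placebo than WT placebo livers (log2 change -1.13, SE 0.14, adjusted p = 1.9e-06) and 1.57-fold lower in KO SAMe than WT placebo livers (-0.65, SE 0.15, adjusted p = 0.0039), and among the low-background arrays both falls passed (-1.16, adjusted p = 0.0011, and -0.64, adjusted p = 0.0077). Its 3 probes gave -1.17 to -0.77 in KO placebo against WT placebo livers. Its rise in KO SAMe against KO placebo livers (0.47, adjusted p = 0.040) did not pass when any of 7 of the 11 arrays was left out (KO placebo 1, 2 or 5, or KO SAMe 1, 3, 4 or 5), with changes of 0.37 to 0.50 and adjusted p up to 0.12.

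Mrpl53 was at 7.06, 7.30 and 7.73 (lowest, median, highest) in KO placebo livers, at 6.83, 7.76, 7.87, 7.88 and 8.17 in KO SAMe livers, and at 7.98, 8.60 and 9.11 in WT placebo livers. The KO SAMe liver at 6.83 was lower than every KO placebo liver, and 1 other KO SAMe liver reached into the WT placebo range. Against WT placebo the change was -1.22 (SE 0.19, adjusted p = 2.6e-05) in KO placebo livers, and in KO SAMe livers it was -0.87 (SE 0.20, adjusted p = 0.0046). It was 0.35 (SE 0.21, 95% interval -0.09 to 0.80, adjusted p = 0.28) in KO SAMe against KO placebo livers. Mrpl22, whose bacterial counterpart lines the tunnel through which new chains leave, was at 5.92, 6.13 and 6.28 in KO placebo, 5.91, 6.02, 6.04, 6.25 and 6.97 in KO SAMe, and 6.33, 6.81 and 7.39 in WT placebo livers. Only 1 KO SAMe liver, at 6.97, was above the highest KO placebo liver. The change of Mrpl22 was -0.72 (SE 0.18, adjusted p = 0.0024) in KO placebo livers against WT placebo, and in KO SAMe livers it was -0.60 (SE 0.19, adjusted p = 0.031). Both changes of Mrpl22 among the low-background arrays missed the threshold, at -0.51 (adjusted p = 0.20) and -0.51 (adjusted p = 0.084). The KO SAMe call of Mrpl22 was lost without KO SAMe 2, 3, 4 or 5 or WT placebo 1, 3 or 6 (-0.60 to -0.51, adjusted p up to 0.10).

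Mrps35, a small subunit protein without a bacterial counterpart, lay between these and the first group. It was at 6.49, 6.71 and 6.98 (lowest, median, highest) in KO placebo, 6.99, 6.999, 7.28, 7.33 and 7.40 in KO SAMe, and 7.27, 7.53 and 7.87 in WT placebo livers. The KO placebo arrays lay below all others, and the KO SAMe arrays overlapped with WT placebo. The change of Mrps35 was -0.80 (adjusted p = 4.9e-06) in KO placebo and -0.33 (adjusted p = 0.0503) in KO SAMe livers against WT placebo, and 0.48 (adjusted p = 0.0092) in KO SAMe against KO placebo livers.

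The small subunit genes Mrps9, Mrps11 and Mrps28, each with a bacterial counterpart, fell by 0.78, 0.71 and 0.61 on the log2 scale in KO placebo against WT placebo livers and were higher by 0.60, 0.62 and 0.56 in KO SAMe against KO placebo livers. For all 3 the KO placebo arrays lay below all arrays of both other groups. The changes of Mrps5 were smaller, at -0.38 (adjusted p = 0.0023) and 0.43 (adjusted p = 0.0069), and with arrays scaled to the median of all probes they turned to 0.02 and -0.01. With the background set as a block neither change of Mrps5 passed (-0.26, adjusted p = 0.056, and 0.28, adjusted p = 0.14), nor did its fall among the low-background arrays (-0.29, adjusted p = 0.16). Mrps34, linked in human to Leigh syndrome, changed by -0.35 (adjusted p = 0.0093) and 0.49 (adjusted p = 0.0059), and among the low-background arrays by -0.15 (adjusted p = 0.55) and 0.27 (adjusted p = 0.42). The calls of some rises ended when single arrays were left out. The rise of Mrps10 (0.42) was lost without KO placebo 1 or 2 or KO SAMe 1 (0.35 to 0.37, adjusted p up to 0.056). The rise of Mrps17 (0.34) was lost without any array but KO placebo 6, KO SAMe 2 or KO SAMe 5 (0.27 to 0.36, adjusted p up to 0.14), and that of Mrps33 (0.32) without any but KO placebo 3, 5 or 6 or KO SAMe 2 (0.27 to 0.33, adjusted p up to 0.10). In the large subunit the rise of Mrpl17 (0.30) was lost without any array but KO placebo 4 or KO SAMe 1 (0.26 to 0.30, adjusted p up to 0.11). Mrpl40 changed by -0.42 in KO placebo against WT placebo livers and by 0.50 in KO SAMe against KO placebo livers. The fall of Mrpl40 was lost without KO placebo 1, 2 or 3 or WT placebo 7 (-0.40 to -0.32, adjusted p up to 0.089), and its rise without KO placebo 1, 2 or 3 or KO SAMe 1, 4 or 5 (0.40 to 0.48, adjusted p up to 0.10). The changes of Mrpl40 among the low-background arrays were -0.01 and 0.05.

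Of the genes that went the other way, Mrpl43 had the largest rise in KO placebo livers. It codes for a large subunit protein without a bacterial counterpart. It was at 7.25, 7.46 and 7.75 (lowest, median, highest) in KO placebo, 6.73, 6.99, 6.99, 7.09 and 7.44 in KO SAMe, and 6.96, 7.06 and 7.55 in WT placebo livers. The groups overlapped. KO placebo against WT placebo livers gave a change of 0.38 (SE 0.11, adjusted p = 0.0105). KO SAMe against KO placebo livers gave -0.44 (SE 0.13, adjusted p = 0.018), and without KO SAMe 2 the fall did not pass (-0.36, adjusted p = 0.055). A second probe of Mrpl43 gave -0.08 (adjusted p = 0.75) and -0.05 (adjusted p = 0.89), so the change rests on 1 probe.

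Mrpl35 was near the detection limit, detected on all 6 KO placebo and all 5 KO SAMe arrays but on 4 of 8 WT placebo arrays. It was at 4.57, 4.85 and 5.16 (lowest, median, highest) in KO placebo, 4.79, 4.82, 4.86, 4.87 and 4.98 in KO SAMe, and 4.30, 4.55 and 4.82 in WT placebo livers. The log2 change was 0.32 (adjusted p = 0.012) in KO placebo and 0.31 (adjusted p = 0.040) in KO SAMe livers against WT placebo. The KO SAMe call of Mrpl35 was lost without KO SAMe 2, 3, 4 or 5 or WT placebo 1, 3, 6 or 8 (0.27 to 0.33, adjusted p up to 0.11). Mrps2, a conserved small subunit protein, was higher by 0.26 (adjusted p = 0.0496) in KO placebo livers, with overlapping groups at 5.20 to 5.81 in KO placebo and 5.06 to 5.53 in WT placebo livers. That call held only without KO placebo 4, KO placebo 5, WT placebo 2 or WT placebo 4, and in the other 10 of 14 cases the change was 0.19 to 0.25 with an adjusted p up to 0.16. With the background set as a block it was 0.26 (adjusted p = 0.11).

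Mrpl23, at the exit of the nascent chain tunnel in its bacterial counterpart, was higher after SAMe without a lower level in KO placebo livers. It was at 9.77, 9.90 and 10.51 (lowest, median, highest) in KO placebo, 10.08, 10.19, 10.48, 10.49 and 10.74 in KO SAMe, and 9.79, 10.00 and 10.11 in WT placebo livers. Of the KO SAMe livers, 4 lay above the highest WT placebo liver. The change of Mrpl23 was 0.04 (adjusted p = 0.82) in KO placebo and 0.43 (adjusted p = 0.017) in KO SAMe livers against WT placebo, and 0.39 (adjusted p = 0.039) in KO SAMe against KO placebo livers. Without KO SAMe 2 its change against WT placebo was 0.34 (adjusted p = 0.075), and its rise over KO placebo was lost without KO placebo 1, 2, 3 or 4 or KO SAMe 2, 3 or 4 (0.30 to 0.37, adjusted p up to 0.11). Among the low-background arrays its rise over KO placebo was 0.07 (adjusted p = 0.89) and its rise over WT placebo 0.40 (adjusted p = 0.023). Mrpl10 and Mrpl42, picked out after their values were seen, rose by 0.23 and 0.34 in KO SAMe against KO placebo livers with no fall past the threshold in KO placebo livers (-0.11 and -0.14 against WT placebo). With the background set as a block neither rise passed (0.25, adjusted p = 0.104, for Mrpl10 and 0.24, adjusted p = 0.25, for Mrpl42). A second probe of Mrpl10 gave a rise of 0.12 (adjusted p = 0.48). Mrpl52 is the only one of the 71 genes among the 100 measured genes nearest to Mat1a on chromosome 14, and it changed by 0.30 (95% interval -0.07 to 0.68, adjusted p = 0.20) in KO placebo against WT placebo livers.

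Against WT placebo livers, few of the 71 genes differed in KO SAMe livers. Mrpl23 and Mrpl35 were higher, Mrpl53, Mrpl48 and Mrpl22 were lower, and 66 did not pass, where 9.49% of all genes rose and 8.09% fell. The median change was -0.09, against 0.00 over all genes. At an unadjusted p under 0.05, 2 of the 71 genes were higher and 10 lower, as were 1737 and 1519 of all 10831 genes. At an adjusted p under 0.05, leaving out KO SAMe 2 left none of the 71 higher and 2 lower. Leaving out KO SAMe 1 or WT placebo 2 gave 5 lower. A change past the threshold in KO placebo and not in KO SAMe livers does not by itself show that they differ, and the direct comparison of the KO groups is the one given above.

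The 71 genes were also summed up per liver. The median over the 71 genes of each array's difference from the WT placebo mean was -0.54 to -0.27 in the 6 KO placebo livers, -0.20 to 0.04 in the 5 KO SAMe livers and -0.17 to 0.14 in the 8 WT placebo livers. All KO placebo livers lay below all others. The 4 high-background KO placebo arrays were at -0.54 to -0.28 and the 2 low-background ones at -0.27 each, while the high-background WT placebo array had the highest value of all, 0.14. No test was made on this median, since the genes were chosen with results known.

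**Figure D3:**
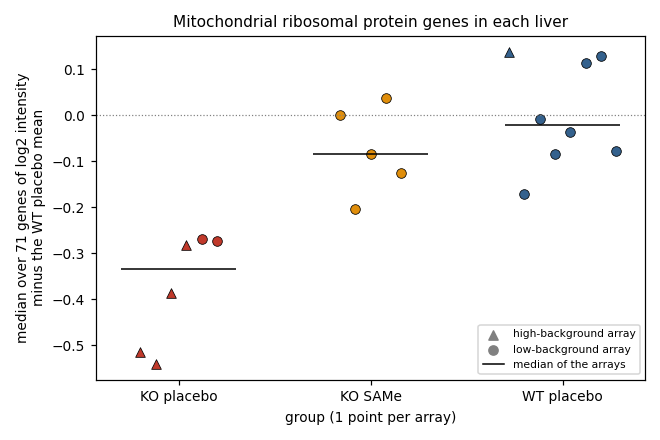
Median over the 71 genes of log2 intensity minus the mean of the WT placebo livers (y axis) in each liver (points) by group (x axis). Triangles are the high-background set and lines are group medians. KO placebo livers lie at -0.54 to -0.27, KO SAMe livers at -0.20 to 0.04 and WT placebo livers at -0.17 to 0.14.

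Large and small subunit genes had like counts. In KO placebo against WT placebo livers 27 of 46 large subunit genes fell and 2 rose (median change -0.37). For the small subunit 14 of 25 genes fell and 1 rose (median -0.33), where 20.4% of all genes fell and 19.8% rose. In KO SAMe against KO placebo livers 19 of 46 and 10 of 25 rose, with medians of 0.28 and 0.25, where 10.8% of all genes rose. Genes with a bacterial counterpart (26 of 43 fell, median -0.36) and genes without one (15 of 28 fell, median -0.30) were also close. By level, 7 of the 24 dimmest genes fell, against 17 of the 23 of middle level and 17 of the 24 brightest, over mean log2 levels of 4.42 to 10.72. Dim probes carry a larger part of background, and the part of that in the lower count was not tested. The share that fell was also higher among all genes detected on every array (31.3%) than among all genes tested (20.4%). Shares of all genes by level were not counted. Several probes past the detection limit were present for 23 genes, and Mrpl15, picked out after its values were seen, was the only one whose probes differed by more than 1.5-fold in KO placebo against WT placebo livers (6 probes, -1.28 to 0.34). The genes Mrpl19, Mrpl32, Mrpl39, Mrpl41, Mrpl45 and Mrps14 were not analysed here.

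Proteins of the mitochondrial ribosome with other names did not all follow. Chchd1, a small subunit protein, was at 9.73, 10.11 and 10.46 (lowest, median, highest) in KO placebo, 9.89, 10.47, 10.65, 10.74 and 10.81 in KO SAMe, and 10.62, 10.99 and 11.16 in WT placebo livers, with a change of -0.81 (adjusted p = 0.00011) in KO placebo against WT placebo livers and of -0.45 (adjusted p = 0.13) among the low-background arrays. Dap3, a small subunit protein that binds GTP, went the other way. It was at 9.58, 9.68 and 10.10 in KO placebo, 9.73, 9.76, 9.78, 9.79 and 9.84 in KO SAMe, and 9.08, 9.25 and 9.47 in WT placebo livers, so every KO liver lay above every WT liver. Its change against WT placebo was 0.47 (adjusted p = 0.00013) in KO placebo and 0.52 (adjusted p = 0.00038) in KO SAMe livers, and among the low-background arrays 0.64 (adjusted p = 0.0019) and 0.50 (adjusted p = 0.0012). Ptcd3, a pentatricopeptide repeat protein of the small subunit, changed by 0.03 (adjusted p = 0.89) in KO placebo livers.

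The ribosomal proteins of the cytosol and the subunits of oxidative phosphorylation were also lower in KO placebo livers. Of 52 measured cytosolic ribosomal protein genes 29 fell (55.8%) and 3 rose (5.77%) in KO placebo against WT placebo livers (median -0.33). Of 69 oxidative phosphorylation genes 38 fell (55.1%) and 6 rose (8.7%, median -0.29), and of all genes 20.4% fell and 19.8% rose. In KO SAMe against KO placebo livers 11 of 52 cytosolic ribosomal protein genes rose (21.2%) and 2 fell (3.85%, median 0.19). Of 69 oxidative phosphorylation genes 25 rose (36.2%) and 1 fell (1.45%, median 0.27), and of all genes 10.8% rose and 7.69% fell. Among the low-background arrays 18 of 52 cytosolic genes fell and 3 rose in KO placebo against WT placebo livers (median -0.35). In that fit 11 of 69 oxidative phosphorylation genes fell and 4 rose (median -0.13), and 8.99% of all genes fell and 9.28% rose. In KO SAMe against KO placebo livers the 25 rises of oxidative phosphorylation genes became 8 with the background set as a block. By limma among the low-background arrays none of these genes rose and 1 fell, with 13 higher and 3 lower at an unadjusted p under 0.05, while 3 cytosolic genes rose. In KO SAMe against WT placebo livers 9 of 52 cytosolic ribosomal protein genes were lower (17.3%) and none higher by limma, against 8.09% and 9.49% of all genes. At an unadjusted p under 0.05, 16 were lower and 2 higher, against 1519 and 1737 of all 10831 genes. With arrays scaled to the median of all probes the median of the cytosolic genes in KO SAMe against KO placebo livers turned to -0.06. That of the oxidative phosphorylation genes was 0.08 and that of all genes -0.21. The difference between the lists was not tested.

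**Figure D4:**
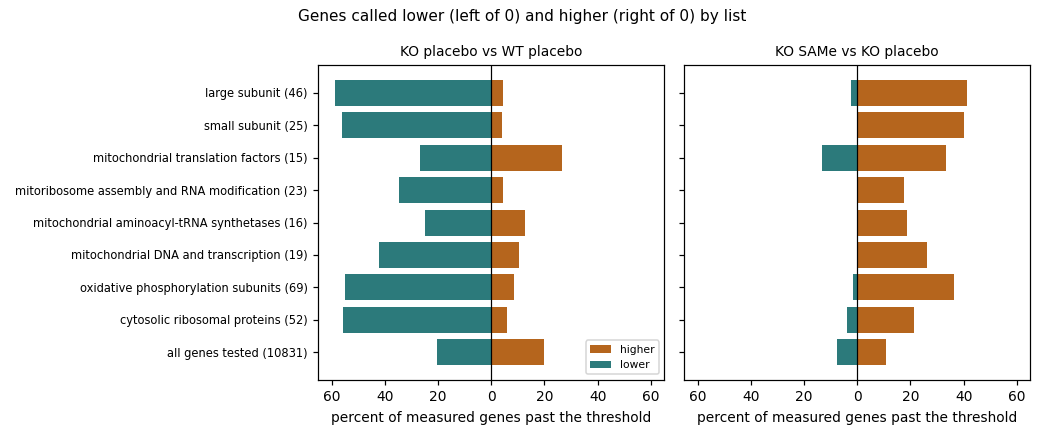
Percent of measured genes (x axis) past the threshold, lower to the left of 0 and higher to the right, by list (rows, with the number measured) in KO placebo against WT placebo livers (left) and KO SAMe against KO placebo livers (right). On the left 58.7% of large subunit genes were lower, against 20.4% of all genes. On the right 41.3% were higher, against 10.8%. Among all genes detected on every array, 31.3% were lower in the left comparison and 18.2% higher in the right one. With the median of all probes as the scale the median of all 71 genes was -0.06, against -0.21 for all genes.

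Other lists held the genes that make, load and serve this ribosome. Of 15 mitochondrial translation factor genes 4 rose and 4 fell in KO placebo against WT placebo livers (26.7% each way, against 19.8% and 20.4% of all genes, median 0.04). Scaled to the median of all probes 9 rose and none fell by limma (median 0.37). In that scaling 37% of all genes rose and 9.12% fell (median 0.18). At an unadjusted p under 0.05, 9 were higher and 1 lower there, against 4560 and 1154 of all 10831 genes. Among the low-background arrays 1 rose and 1 fell, where 9.28% of all genes rose and 8.99% fell. Against KO placebo livers 5 rose (33.3%) and 2 fell (13.3%) in KO SAMe livers, against 10.8% and 7.69% of all genes. With the background block 1 rose there and none fell by limma, where 4.81% of all genes rose and 4.45% fell. At an unadjusted p under 0.05, 4 were higher and 3 lower in that fit, against 1438 and 1334 of all 10831 genes. Tufm, the elongation factor that brings tRNA to the ribosome, was at 10.03, 10.16 and 10.20 (lowest, median, highest) in KO placebo, 9.96, 10.14, 10.17, 10.19 and 10.38 in KO SAMe, and 9.21, 9.52 and 9.67 in WT placebo livers. All KO livers of both treatments thus lay above all WT livers. Tufm was 1.55-fold higher in KO placebo (log2 change 0.64, adjusted p = 5.1e-06) and 1.59-fold higher in KO SAMe livers (0.67, adjusted p = 2.5e-05) than in WT placebo livers, with a change of 0.04 (95% interval -0.16 to 0.24) in KO SAMe against KO placebo livers. Oxa1l, which inserts new chains into the inner membrane, rose by 0.72 in KO placebo livers and fell by 0.58 in KO SAMe against KO placebo livers. Mtres1, which acts on stalled ribosomes, changed by -0.49 and 0.32 in these comparisons, the initiation factor Mtif3 by -0.45 and 0.66, and Hemk1, a methyltransferase of release factors, by -0.45 and 0.66. With the background set as a block the changes in KO SAMe against KO placebo livers did not pass for Oxa1l (-0.51, adjusted p = 0.059), Mtres1 (0.34, adjusted p = 0.061), Mtif3 (0.59, adjusted p = 0.052) or Hemk1 (0.42, adjusted p = 0.078). Among the low-background arrays the rise of Oxa1l in KO placebo livers was 0.45 (adjusted p = 0.083), where Mtif3 and Hemk1 also lost their falls, and of these 4 genes Mtres1 alone passed in KO placebo against WT placebo livers (-0.61, adjusted p = 0.0032). Gfm2, a ribosome recycling factor, was higher by 0.52 in KO SAMe than WT placebo livers (adjusted p = 8e-04), and Taco1, a translational activator of Cox1, changed by 0.40 in KO SAMe against KO placebo livers (adjusted p = 0.012) and by 0.24 in the fit with the background block (adjusted p = 0.22).

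Of 23 genes for assembly of the ribosome and modification of its RNA 8 fell (34.8%) and 1 rose (4.35%) in KO placebo against WT placebo livers, against 20.4% and 19.8% of all genes. Scaled to the median of all probes 2 were lower and 6 higher (median 0.04), where 9.12% of all genes fell and 37% rose (median 0.18). Among the low-background arrays 1 fell and 1 rose, where 8.99% of all genes fell and 9.28% rose. The fall of Rbfa, a small subunit assembly factor, was 0.72 on the log2 scale (change -0.72, adjusted p = 3.7e-05), and Mrm3 and Mrm1, which methylate riboses of the large ribosomal RNA, changed by -0.65 and -0.41. In KO SAMe against KO placebo livers these rose by 0.47 (Rbfa), 0.62 (Mrm3) and 0.40 (Mrm1). With the background set as a block no gene of this list passed in that comparison by limma, where 4.81% of all genes rose. At an unadjusted p under 0.05, 4 of the list were higher and 2 lower in that fit, against 1438 and 1334 of all 10831 genes. The fall of Rbfa passed among the low-background arrays (-0.57, adjusted p = 0.011), and those of Mrm3 (-0.37, adjusted p = 0.18) and Mrm1 (-0.34, adjusted p = 0.17) did not. Mettl17, a small subunit assembly factor, was the one that rose, by 0.73 (adjusted p = 6.1e-06) in KO placebo and by 0.66 (adjusted p = 0.00018) in KO SAMe livers against WT placebo. Rpusd3, a pseudouridine synthase family member, and Mterf3, of the mitochondrial termination factor family, changed by -0.37 and -0.51 in KO SAMe against WT placebo livers (adjusted p = 0.017 and 0.043), and the call of Mterf3 was lost in the fit with the background block (-0.47, adjusted p = 0.055).

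Of 16 mitochondrial aminoacyl-tRNA synthetase genes, for the enzymes that charge tRNA, 2 rose (12.5%) and 4 fell (25%) in KO placebo against WT placebo livers, against 19.8% and 20.4% of all genes. Scaled to the median of all probes 9 rose and 1 fell (median 0.31), where 37% of all genes rose and 9.12% fell (median 0.18). Among the low-background arrays 1 rose and none fell by limma, where 9.28% of all genes rose and 8.99% fell. At an unadjusted p under 0.05, 4 were higher and 1 lower in that fit, against 1715 and 1619 of all 10831 genes. Ears2, for glutamate, was at 6.70, 6.89 and 7.12 (lowest, median, highest) in KO placebo, 6.496, 6.60, 6.72, 6.84 and 6.90 in KO SAMe, and 5.92, 6.11 and 6.34 in WT placebo livers. As for Tufm, all KO livers lay above all WT livers. Its change against WT placebo was 0.80 (adjusted p = 6.2e-07) in KO placebo and 0.63 (adjusted p = 0.00011) in KO SAMe livers. Gars, whose enzyme serves cytosol and mitochondria, was higher than in WT placebo livers by 0.33 in KO placebo and 0.47 in KO SAMe livers, and among the low-background arrays by 0.28 (adjusted p = 0.15) and 0.43 (adjusted p = 0.0064). Fars2, Mars2 and Tars2 changed by -0.40, -0.37 and -0.27 in KO placebo against WT placebo livers and by 0.35, 0.55 and 0.38 in KO SAMe against KO placebo livers, all past the threshold. With the background set as a block Mars2 alone of these 3 passed in both comparisons (-0.34, adjusted p = 0.022, and 0.51, adjusted p = 0.023), while Fars2 (-0.27 and 0.19) and Tars2 (-0.21 and 0.30) passed in neither. None of the 3 passed by limma in either comparison among the low-background arrays, where the falls were -0.29 for Fars2 (adjusted p = 0.17), -0.18 for Mars2 (adjusted p = 0.39) and -0.28 for Tars2 (adjusted p = 0.29).

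Of 19 genes for mitochondrial DNA, its transcription and its nuclear regulators, 8 fell (42.1%) and 2 rose (10.5%) in KO placebo against WT placebo livers (median -0.29), against 20.4% and 19.8% of all genes. Scaled to the median of all probes 3 were lower and 4 higher, with a median of 0.07. In that scaling 9.12% of all genes fell and 37% rose, with a median of 0.18. Among the low-background arrays 6 fell and 1 rose, where 8.99% of all genes fell and 9.28% rose. Esrra, a nuclear receptor that activates genes of mitochondrial energy metabolism, was at 6.34, 6.76 and 6.88 (lowest, median, highest) in KO placebo, 7.31, 7.34, 7.51, 7.51 and 7.77 in KO SAMe, and 7.48, 7.89 and 8.12 in WT placebo livers. The KO placebo livers lay below all others. Its change was -1.14 (SE 0.11, adjusted p = 1.2e-07) in KO placebo and -0.36 (adjusted p = 0.043) in KO SAMe livers against WT placebo, and 0.79 (adjusted p = 0.00044) in KO SAMe against KO placebo livers. Among the low-background arrays the fall was -1.06 (adjusted p = 0.00053) and the rise 0.72 (adjusted p = 0.065).

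Nrf1, a factor known to activate nuclear genes of the respiratory chain, was at 5.17, 5.33 and 6.03 (lowest, median, highest) in KO placebo, 5.88, 6.11, 6.15, 6.29 and 6.54 in KO SAMe, and 6.17, 6.43 and 6.72 in WT placebo livers. Of the KO placebo livers the 4 with high background were the lowest. The change of Nrf1 was -0.95 (adjusted p = 7.5e-06) in KO placebo against WT placebo livers and 0.71 (adjusted p = 0.0025) in KO SAMe against KO placebo livers, and among the low-background arrays -0.52 (adjusted p = 0.037) and 0.28 (adjusted p = 0.45). Tefm, the elongation factor of mitochondrial transcription, was at 6.42, 6.97 and 7.09 in KO placebo, 7.16, 7.70, 7.71, 7.75 and 7.84 in KO SAMe, and 7.48, 7.91 and 8.29 in WT placebo livers. Every KO placebo liver was below every other liver, with changes of -1.01 (adjusted p = 8e-06) and 0.75 (adjusted p = 0.003). The termination factor Mterf1b changed by -0.63 and 0.62, and by -0.36 (adjusted p = 0.14) and 0.36 (adjusted p = 0.30) among the low-background arrays, while Slirp, which stabilizes mitochondrial messages, changed by -0.43 in KO SAMe against WT placebo livers (adjusted p = 0.0052), and Tfam, which packages mitochondrial DNA, by -0.64 (adjusted p = 0.0073). Ppargc1a, a coactivator of Nrf1 and Esrra, was higher in both KO groups than in WT placebo livers, by 0.80 (adjusted p = 0.0033) in KO placebo and 0.91 (adjusted p = 0.0056) in KO SAMe livers.

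**Figure D5:**
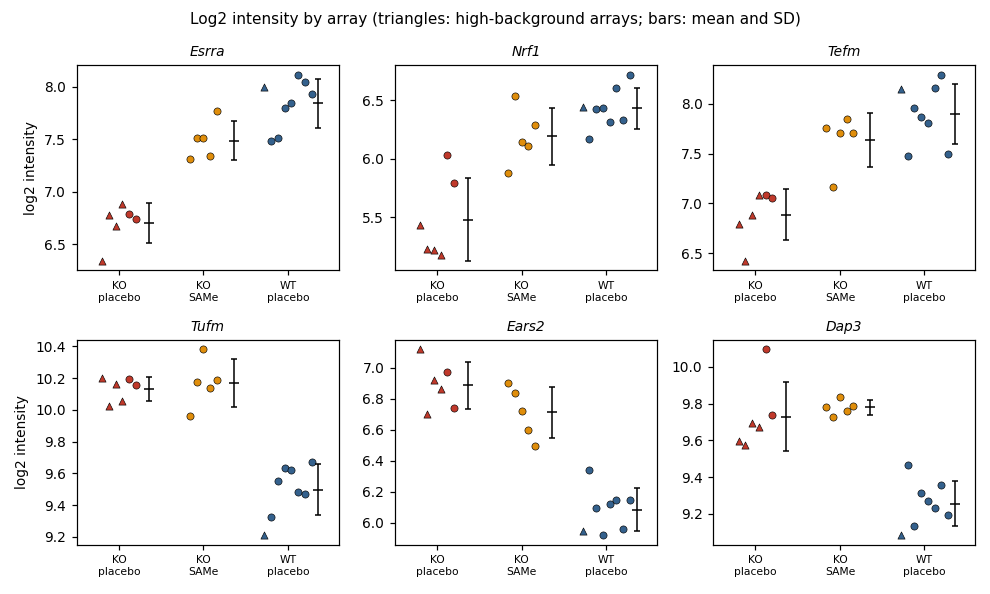
Log2 intensity (y axis) of 6 genes that serve the mitochondrial ribosome in every liver (x axis, KO placebo, KO SAMe and WT placebo). Points are arrays, triangles mark the high-background set and bars give the mean and SD. Esrra, Nrf1 and Tefm averaged 6.70, 5.48 and 6.89 in KO placebo against 7.84, 6.43 and 7.90 in WT placebo livers, and Tufm, Ears2 and Dap3 were higher in all KO livers than in any WT liver.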

How the data were processed

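The authors deposited raw bead intensities of 45281 probes on 19 Illumina arrays of 1 colour, with no normalization. The same deposited table holds a detection p-value beside each intensity. They also deposited log2 values for 17592 probes, used as an alternative. Per the labels' protocols, total liver RNA was amplified and labelled with biotin; the scanner software and each array's BeadChip are not stated in the sources used here.

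Background was removed in limma 3.58.1 (R 4.3.3; normexp with background inferred from detection p-values, offset 16), followed by quantile normalization and log2. Quantile normalization hides any shift shared by most genes. Probes detected at p under 0.05 on 5 or more arrays were kept (14295), with the brightest probe per gene, which left 8529 named genes and 2302 unnamed probes. Gene names came from the platform annotation. All 19 arrays entered 1 fit (lmFit and eBayes, two-sided, 16 residual degrees of freedom) with 3 contrasts. A run of the fit on simulated data used independent noise per gene. It held no background sets or ID letters and cannot show how these act. Arrays are separate animals by their labels, numbered by accession order within a group, and their number limits the precision. Promoter shares were counted with Python 3.11.15.

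The genes and lists were chosen with earlier results of these data known, so lists are given by counts and medians with no test. The genes picked for naming were, per comparison, the 8 largest rises and falls past the threshold, the genes past it in both KO placebo against WT placebo and KO SAMe against KO placebo livers, any among the 100 measured genes nearest to Mat1a, and 3 genes per other list with the largest moderated t, with exceptions marked. Of these, Mrpl2, Mrpl27, Mrpl28, Mrpl46, Mrpl49 and Sars2 are covered by the counts alone, and Mrpl13 is named only among the flagged results. Alternatives changed background correction, normalization, filter, probe choice, arrays used or the background set, and the ID letter and the high-background set were added after seeing the data.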

Additional observations from a re-analysis of the deposited data

Results flagged for a closer look

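Dixon's test at the 95% level was run on 102 groups of 5 to 8 arrays. They covered the 33 of the 71 genes picked for naming and the median over all 71. In 3 groups an array stood apart from the rest, and chance alone gives about 1 in 20. Mrps34 was at 10.55 in KO placebo 5, with the other KO placebo arrays at 9.88 to 10.05. Mrpl43 was at 7.55 in WT placebo 3, with the others at 6.96 to 7.24. Mrpl13 was at 10.53 in WT placebo 1, the high-background WT placebo array, with the others at 9.74 to 10.11.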

How the results depend on the processing

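Of the 41 genes lower in KO placebo than WT placebo livers, 32 were also lower with the background set as a block, 17 among the low-background arrays (17 lower in all, median -0.20) and 21 with arrays scaled to the median of all probes (21 lower and 9 higher, median -0.0899). In those fits 18.1%, 8.99% and 9.12% of all genes fell, in that order. The ID letter as a term left 1 lower and 0 higher, the high-background set alone, where the WT placebo arm is 1 array assumed to vary like the KO placebo ones, gave 0 higher and a median of -0.57, and scaling to the probes past the detection limit a median of -0.47. Of the 29 genes higher in KO SAMe than KO placebo livers, the counts were 16 with the block (15 of them the same genes), 1 among the low-background arrays (median 0.12), 9 with all-probe scaling (median -0.0582) and 0 with the ID letter. In those fits 4.81%, 0.323%, 1.87% and 0.00923% of all genes rose, in that order. The 1 gene lower in KO SAMe than KO placebo livers became 0 among the low-background arrays, without a filter or with the ID letter. The count became 2 with normexp without controls, no background correction, the authors' log2 values or the mean over probes. With all-probe scaling 12 were lower, where 29.1% of all genes were lower. Against WT placebo livers, KO SAMe livers had 1 gene higher in place of 2 among the low-background arrays, with normexp without controls, without background correction, with all-probe scaling, the authors' log2 values, detection on all arrays or the ID letter, and 0 with scaling to the probes past the limit or no filter. The 3 lower became 5 with all-probe scaling or the mean over probes and 6 with scaling to the probes past the limit. Leaving out 1 array gave 38 to 41 lower, 2 to 3 higher and medians of -0.38 to -0.30 for KO placebo against WT placebo livers, 20 to 31 higher, 0 to 2 lower and 0.21 to 0.30 for KO SAMe against KO placebo livers, and 0 to 2 higher, 2 to 5 lower and -0.12 to -0.06 for KO SAMe against WT placebo livers. In KO placebo against WT placebo and KO SAMe against KO placebo livers, Mrps5 turned to 0.0194 and -0.0145 with all-probe scaling and Mrpl40 to 0.17 and -0.12 with the ID letter. The cause of these shifts was not tested. No paired analysis was possible because the labels give no replicate numbers shared across groups. The 2 low-background KO placebo arrays and the single ID letter of WT placebo livers limit what the within-set and letter fits can show.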
